A study of Mus musculus with 6 samples.

Results

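Cells that burn glucose to lactate do so through a chain of enzymes that also forms one of the best known target sets of the hypoxia-inducible factor HIF. The transcripts of that chain and of the HIF response were followed in 4T1 cells, a mouse mammary carcinoma line, with and without forced expression of METTL7A1, a putative methyltransferase. The members were 40 genes chosen by symbol, namely glucose and lactate transporters, the glycolytic enzymes, the kinases that steer pyruvate, the HIF-1α subunit and its prolyl hydroxylases, and HIF targets outside glycolysis. All 40 were found among the 48587 genes of the count table, and 35 of them passed the abundance filter, which asked for at least 1 cpm (counts scaled to library size) in at least 3 libraries and kept 13166 genes in all.

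Total RNA was depleted of ribosomal RNA and sequenced from 3 libraries of METTL7A1 cells and 3 of mock cells, labelled as biological triplicates. METTL7A1 cells carried the full-length Mettl7a1 cDNA in pBICEP-CMV-2, so that a CMV promoter drove it, as a stable transfection kept in 350 μg/ml G418. Mock cells carried the empty vector, and both were grown in DMEM/F12 with 10% FBS. The sources do not give an oxygen level, or whether the cells of a group were a clone or a pool, so the p-values given here measure the spread between these libraries.

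In glycolysis, hexokinase, phosphofructokinase and aldolase act in the upper part of the chain, which spends ATP, and the enzymes from glyceraldehyde-3-phosphate dehydrogenase to pyruvate kinase act in the lower one, which returns it. HIF-1α is made at all times and is destroyed when oxygen is present, because prolyl hydroxylases of the EGLN family mark it for degradation. Its transcript level is therefore a poor guide to its activity, and its targets are usually read instead. Tumour cells often run this programme with oxygen at hand.

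The libraries held 18386780 to 28459338 counts. The transgene was read first. Mettl7a1 stood at 342, 385 and 422 cpm in METTL7A1 replicates 1 to 3 and at 1.64, 1.24 and 1.17 cpm in the mock replicates, a log2 fold change of 8.17 (SE 0.143). Across genes, log2 abundances correlated at 0.991 to 0.997 between libraries of a group and at 0.968 to 0.973 between groups. Epithelial markers (Epcam, Krt8, Krt18, Krt14, Cdh1, Cldn4 and Cldn7) were present in both groups, and summed to 1770 to 2150 cpm in METTL7A1 and 1590 to 1940 cpm in mock. Within this sum Krt14 was lower (log2 fold change -1.94, past the stricter thresholds given below), Cldn4 (1.19) and Cldn7 (0.33) were higher, and the other 4 were not called. Of 6 fibroblast, 7 leukocyte and 4 endothelial markers 2 passed the filter. These were Pdgfra, with a log2 fold change of 0.468, and Cd68, with one of 1.23, both higher in METTL7A1. The summed leukocyte markers reached 11.6 to 14.1 cpm against 4.92 to 6.32 cpm, nearly all of it Cd68, while Cd3e was at 0 in every library. What part these markers have in the differences below was not tested.

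Of the 35 members tested, 19 passed edgeR's quasi-likelihood test at an adjusted p under 0.05, which is 54.3%, and are termed called here. Over all genes tested the same test called 42.1%, with 21.1% higher and 21% lower in METTL7A1 (adjustment by Benjamini and Hochberg over all genes). The share of members is to be read against this background, in which a large part of the transcriptome differed. Among the members 13 were higher and 6 lower, and their median log2 fold change was -0.00688, beside -0.0257 over all genes. In 19 members the 3 METTL7A1 values did not overlap the 3 mock values, which happened in 51.6% of all genes. The stricter thresholds of the study (adjusted p under 0.01 and a log2 fold change over 1.5 in either direction) were passed by 1 member, Ldhb, and by 2.48% of all genes. In bulk RNA, fewer cells that express a gene and less of its RNA per cell cannot be told apart.

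**Figure D1:**
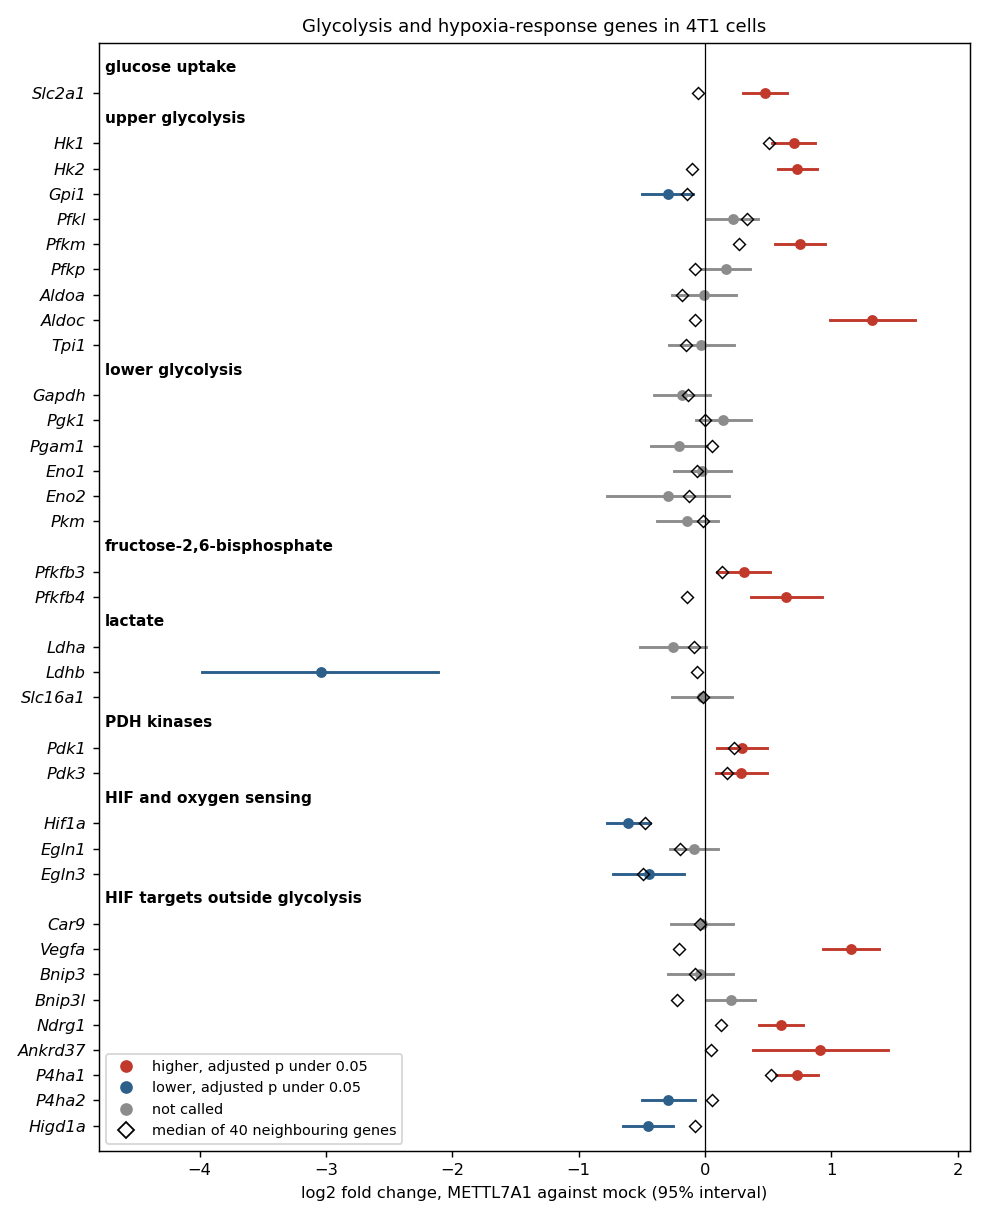
Log2 fold change of the 35 tested members (METTL7A1 against mock, points) with 95% intervals, ordered by role, and the median of that value over 40 expressed neighbours on the chromosome (open diamonds). All 6 lower glycolysis enzymes are grey and cross 0, Ldhb lies farthest from 0 at -3.04, and for Hk1, P4ha1, Hif1a and Egln3 the diamond lies near the point.

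In the upper part of the chain Slc2a1, Hk1, Hk2, Pfkm and Aldoc were higher and Gpi1 was lower. Slc2a1 encodes GLUT1, the glucose transporter of most proliferating cells. It measured 95.3, 106 and 111 cpm in METTL7A1 and 79.6, 76 and 69.8 cpm in mock, and the groups did not overlap (log2 fold change 0.47, SE 0.0797, adjusted p = 0.000761). Its relative Slc2a3, or GLUT3, had at most 0.0811 cpm in METTL7A1 and 0.219 cpm in mock, and was not tested. Hk2, the hexokinase that tumours induce, rose from 110, 105 and 99.5 cpm in mock to 167, 177 and 177 cpm (log2 fold change 0.73, SE 0.0693, adjusted p = 1.61e-05). The constitutive hexokinase Hk1 rose by a like amount, from 81.4, 87.5 and 77.8 cpm to 124, 136 and 141 cpm (0.70, SE 0.0762, adjusted p = 4.03e-05). Every METTL7A1 library exceeded every mock library for both hexokinases. The genes around Hk1 on its chromosome rose as well (median 0.50 over the 40 nearest expressed genes), which those around Hk2 did not (-0.10).

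Phosphofructokinase, which commits sugar to glycolysis, is a tetramer built from liver, muscle and platelet type subunits. Pfkm, the muscle type, had 18.4, 18.1 and 19.1 cpm in METTL7A1 and 10.9, 10.9 and 11.2 cpm in mock, a log2 fold change of 0.75 (SE 0.0900, adjusted p = 7.76e-05) with clearly separated groups. Pfkl, the liver type and the most abundant of them, had a difference of 0.22 with a 95% interval from 0.0184 to 0.416 and an adjusted p of 0.075. It was called higher with upper quartile scaling (adjusted p = 0.0431), without a filter (0.0309), with DESeq2 (0.0417) and without METTL7A1 replicate 1 (0.0124), and turned to -0.12 when the median of its chromosomal neighbours was taken off. Pfkp was also not called (0.17, adjusted p = 0.149), although its lowest METTL7A1 library, at 33.3 cpm, lay just above the highest mock library. Among aldolases the minor form Aldoc moved. It measured 5.66, 6.16 and 6.41 cpm in METTL7A1 against 2.35, 2.48 and 2.46 cpm in mock (2.5-fold, log2 fold change 1.32, SE 0.153, adjusted p = 6.11e-05), without overlap. Aldoa, the bulk of the aldolase RNA, did not pass the test (-0.00688, 95% interval -0.259 to 0.245), nor did triosephosphate isomerase, Tpi1 (-0.0316).

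Gpi1, which turns glucose-6-phosphate into fructose-6-phosphate, was the upper enzyme on the lower side. It had 120, 141 and 147 cpm in METTL7A1 and 178, 171 and 152 cpm in mock (-0.30, SE 0.0915, adjusted p = 0.0224). The groups were narrowly apart, and the call was lost when METTL7A1 replicate 1 or 2 or mock replicate 1 or 2 was left out, where adjusted p was at most 0.113. It was also lost with a replicate block (0.0502) and when the median of its chromosomal neighbours was taken off (0.226).

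The lower part of the chain held no call. Of its 6 enzymes Gapdh, which oxidises the triose, differed by -0.18 (95% interval -0.404 to 0.0415). Pgk1, the first step that makes ATP, differed by 0.14 (-0.0713 to 0.36), and the mutase Pgam1 by -0.21 (-0.428 to 0.0167). For the enolases the values were -0.0213 (-0.247 to 0.204) for Eno1 and -0.29 (-0.773 to 0.193) for the neuronal form Eno2. Pkm, the pyruvate kinase, had 1180, 1320 and 1390 cpm in METTL7A1 and 1500, 1540 and 1260 cpm in mock, and differed by -0.14 (-0.383 to 0.099). Per kilobase of exon it was also the most abundant member, at 500 cpm per kb in METTL7A1 and 552 in mock. A missing call does not show equal levels, and the intervals give what these libraries can bound. Left-out libraries bore on 2 of these values, since Pgk1 passed without METTL7A1 replicate 1 (lowest adjusted p 0.0474) and Pgam1 passed without METTL7A1 replicate 3 or mock replicate 3 (lowest adjusted p 0.0351).

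Sums show how much of the RNA these steps take up. They were not tested, and the first of them holds 4 transcripts already called higher. Slc2a1, Hk1, Hk2 and the 3 phosphofructokinases together reached 626.1, 685 and 708.4 cpm in METTL7A1 and 505.5, 498.7 and 447.1 cpm in mock. The 9 abundant enzymes Gpi1, Aldoa, Tpi1, Gapdh, Pgk1, Pgam1, Eno1, Pkm and Ldha summed to 3326, 3811 and 4089 cpm in METTL7A1 and 4215, 4397 and 3555 cpm in mock, and here the ranges crossed. These 9 enzymes moved together among the libraries of a group. METTL7A1 replicate 1 was the lowest of its group in all 9 enzymes, and mock replicate 3 was the lowest of its group in all 9. Their sums were 84.2% and 82.6% of the mean of the other 2 libraries of the group. Other members were divided. Both libraries were also the lowest of their groups for Slc2a1, Hk1, Hk2, Hif1a, Ndrg1 and P4ha1, among others. In contrast, mock replicate 3 was the highest mock library for Vegfa and Pfkm, and METTL7A1 replicate 1 the highest of its group for Pfkfb3. The part of this spread in the missing calls was not tested.

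**Figure D2:**
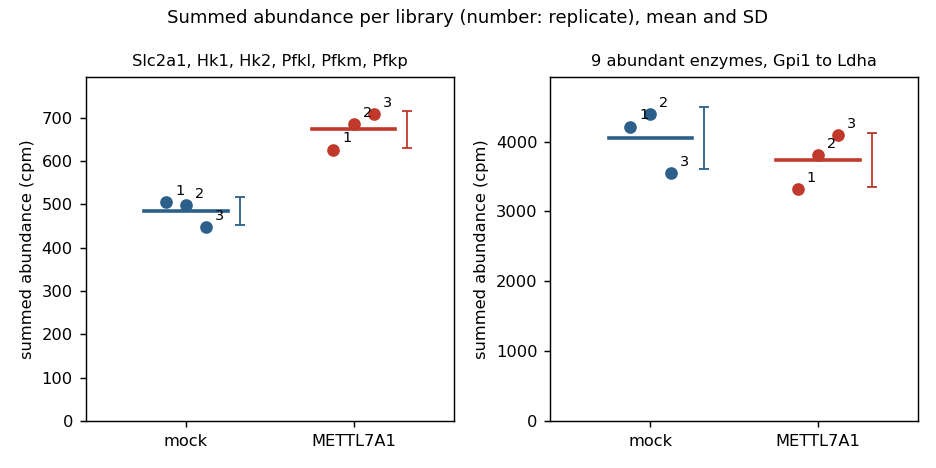
Summed abundance (cpm) of Slc2a1, 2 hexokinases and 3 phosphofructokinases (left, 4 of the 6 called higher) and of 9 abundant enzymes (right) in each library, numbered by replicate, with group mean (line) and SD (bar at the side). On the left the METTL7A1 libraries lie between 626.1 and 708.4 cpm and the mock ones between 447.1 and 505.5 cpm, while on the right mock replicate 3 falls among the METTL7A1 libraries.

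Fructose-2,6-bisphosphate, the strongest activator of phosphofructokinase, is made and removed by the PFKFB enzymes. Pfkfb4 rose from 6.56, 5.94 and 6.4 cpm in mock to 10.3, 10.5 and 8.68 cpm (0.64, SE 0.128, adjusted p = 0.00207). Pfkfb3, the form with the highest kinase activity, had 19.7, 16.8 and 18.6 cpm against 15.1, 14.2 and 15.1 cpm (0.31, SE 0.095, adjusted p = 0.023). Neither pair of groups overlapped, but the call of Pfkfb3 was lost when METTL7A1 replicate 1 or 3 or mock replicate 2 was left out.

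The largest difference among the members was in a lactate dehydrogenase. Ldhb encodes the heart type subunit, which favours the step from lactate back to pyruvate, and was present at 2.08, 1.24 and 2.33 cpm in mock and 0.431, 0.135 and 0.162 cpm in METTL7A1 (-3.04, SE 0.424, adjusted p = 0.000217). In reads this was 38, 30 and 58 counts against 8, 4 and 4. It entered the test through the mock libraries alone, where it is high, so that its call had to be on the lower side. Without any one mock library it fell under the filter. Ldha, the muscle type subunit that makes lactate, was far more abundant in both groups. It had 381, 453 and 505 cpm in METTL7A1 and 537, 595 and 464 cpm in mock, overlapping values that were not called (-0.25, 95% interval -0.513 to 0.00654). It did pass without METTL7A1 replicate 3 or mock replicate 3, with adjusted p down to 0.0315. Slc16a1, the lactate carrier MCT1, differed by -0.0221 and was not called, while its relative Slc16a3, or MCT4, was at no more than 0.164 cpm in any library.

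Pyruvate dehydrogenase kinases hold pyruvate back from the mitochondrion. Pdk1, a HIF target, measured 38.7, 41.7 and 45.2 cpm in METTL7A1 and 34.4, 37.3 and 31.1 cpm in mock (0.29, SE 0.0889, adjusted p = 0.0216). Pdk3 measured 68.7, 74.1 and 80.6 cpm and 58.5, 69 and 55.7 cpm (0.29, SE 0.0923, adjusted p = 0.0272). The Pdk3 groups overlapped, and leaving out METTL7A1 replicate 2 or 3 or mock replicate 3 ended both calls, as did leaving out mock replicate 1 for Pdk3. Pdk2 stayed at or below 0.929 cpm and Pdk4 at or below 0.102 cpm, so they were not tested.

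Hif1a itself fell. It had 194, 201 and 204 cpm in METTL7A1 and 304, 327 and 283 cpm in mock, a log2 fold change of -0.61 (SE 0.0772, adjusted p = 0.000113) without overlap. The genes next to it on the chromosome were also lower, with a median of -0.47, as were those next to Egln3, with -0.49. Of the hydroxylases, Egln3, which is itself induced by HIF, fell from 17.9, 23.3 and 18.2 cpm to 13.3, 13.7 and 16.6 cpm (-0.45, SE 0.128, adjusted p = 0.0157). Its groups were narrowly separated, and its call was lost without METTL7A1 replicate 2 or mock replicate 2. Egln1, the main oxygen sensor, was not called (-0.0892, 95% interval -0.28 to 0.102).

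HIF targets outside glycolysis went both ways. Vegfa, the main angiogenic factor, was 29.7, 32.3 and 27 cpm in METTL7A1 and 12.2, 12.9 and 14.7 cpm in mock, a 2.23-fold difference with wide separation (1.16, SE 0.102, adjusted p = 9.44e-06). Ndrg1, a stress-responsive gene, rose from 40.7, 42.6 and 38.5 cpm to 56.3, 63.3 and 64.7 cpm (0.60, SE 0.0778, adjusted p = 0.000132). Ankrd37, a small ankyrin repeat gene, was at 2.05, 1.56 and 1.5 cpm against 0.929, 0.825 and 0.926 cpm (0.91, SE 0.244, adjusted p = 0.0113). It entered the test through the METTL7A1 libraries alone, so that its call had to be on the higher side. Higd1a, a mitochondrial protein induced by low oxygen, was lower, at 18.4, 17.8 and 20.1 cpm against 24.7, 27.9 and 24.5 cpm (-0.45, SE 0.0903, adjusted p = 0.00216). These 4 genes had no overlap between groups. The carbonic anhydrase Car9 (-0.0267, 95% interval -0.271 to 0.218) and the mitophagy receptors Bnip3 (-0.0373, -0.295 to 0.221) and Bnip3l (0.20, 0.0104 to 0.398, adjusted p = 0.0846) were not called. Bnip3l was called higher without a filter, without METTL7A1 replicate 1, without mock replicate 2 and when the median of its chromosomal neighbours was taken off. Adm, which encodes the vasodilator adrenomedullin, had 1.02, 0.914 and 1.18 cpm against 0.711, 0.619 and 0.725 cpm, and stayed under the filter.

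The 2 collagen prolyl 4-hydroxylase subunits were called in opposite directions, but neither call held in every alternative. P4ha1 measured 186, 204 and 209 cpm in METTL7A1 and 123, 125 and 114 cpm in mock (0.73, SE 0.0749, adjusted p = 2.74e-05), beside a median of 0.52 over its neighbours. With that median taken off it was no longer called (0.21, adjusted p = 0.0551). P4ha2 measured 22.2, 22.9 and 21.5 cpm and 29.4, 28.8 and 23.6 cpm (-0.29, SE 0.0961, adjusted p = 0.0298). Both were separated between the groups, P4ha2 by a small gap, and its call was lost without METTL7A1 replicate 2 or 3 or mock replicate 1 or 2. The P4ha2 call was also lost without an abundance filter.

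**Figure D3:**
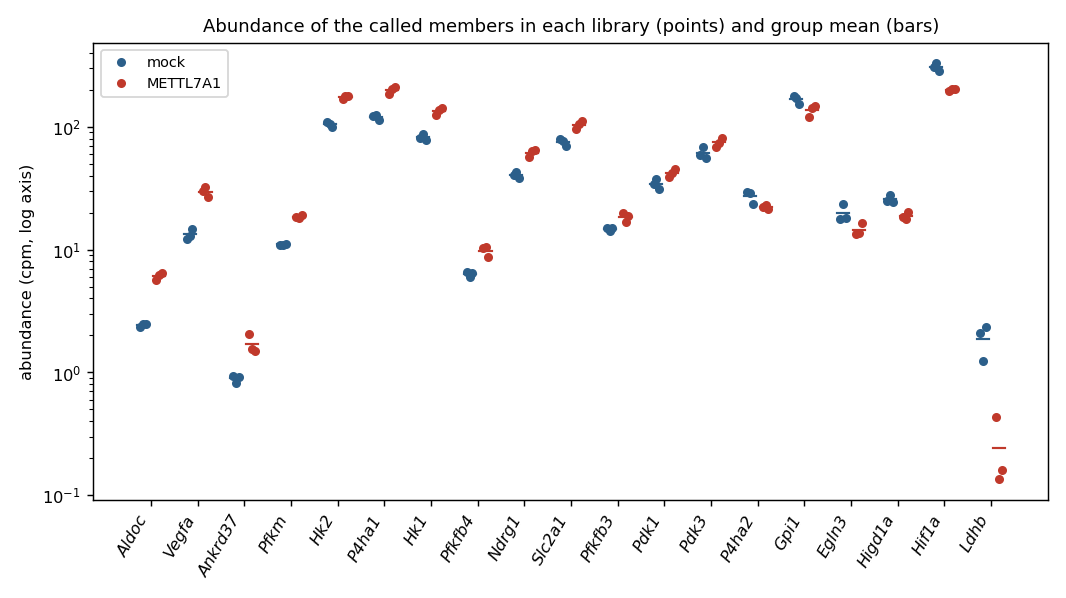
Abundance (cpm, log axis) of the 19 called members in each mock and METTL7A1 library (points) and the group means (bars), ordered from the largest rise to the largest fall. The points of the groups are apart in every member but Pdk3, and the members span from under 1 cpm (Ldhb in METTL7A1) to over 300 cpm (Hif1a in mock).

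Isozymes of a step can also be read as shares, which do not depend on library scaling. Shares were taken of cpm per kilobase of exon, and with 3 libraries against 3 the exact two-sided permutation test cannot go below p = 0.10, which was 0.188 after adjustment over 15 shares. In 8 of the 15 the groups did not overlap, where the abundances of 51.6% of all genes did not. The 8 include all 3 phosphofructokinase shares, which depend on each other, and that of Slc2a3, which had at most 5 counts in a library. The share of P4ha2 in the prolyl 4-hydroxylase subunits was 17.3, 16.5 and 15.4% in METTL7A1 and 29.6, 28.7 and 26.7% in mock, a fall by 12 percentage points. The rise of P4ha1, whose chromosomal neighbours had a median of 0.52, enters this share. Pfkm made up 8.95% ± 0.608 (SD, n = 3) of phosphofructokinase in METTL7A1 and 6.34% ± 0.666 (SD, n = 3) in mock, and Pfkl 79.3% ± 1.02 and 81.3% ± 0.569, so the liver type stayed the bulk. Aldoc made up 1.23% ± 0.0816 of aldolase against 0.495% ± 0.0737, and Ldhb 0.0848% ± 0.0688 of lactate dehydrogenase against 0.529% ± 0.214. The share of Pfkfb4 in the PFKFB pair was 45.9% ± 3.71 against 40.3% ± 0.464. The share of Hk2 in hexokinase was 53% ± 0.92 and 52.4% ± 1.42 with overlap, so the balance of the hexokinases differed by less than the spread while both rose. Shares take no account of chromosomal neighbours, which rose around Hk1 (median 0.50) and not around Hk2 (-0.10). Pdk3 in the kinases overlapped as well (80.9% ± 0.12 and 80.6% ± 0.866).

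**Figure D4:**
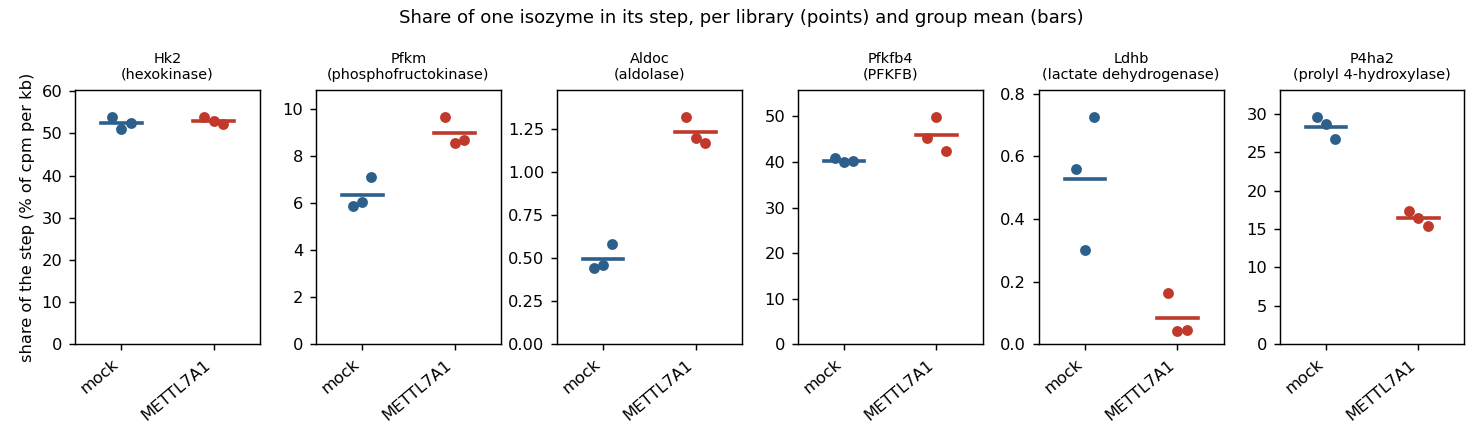
Share of one isozyme in its step (% of summed cpm per kilobase) in each mock and METTL7A1 library (points) with the group mean (bars). P4ha2 drops from 28.3% to 16.4%, Pfkm, Aldoc and Pfkfb4 are higher in METTL7A1, Ldhb is lower, and Hk2 overlaps.

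Several members lay in stretches of chromosome whose genes moved together. For each gene the 40 nearest expressed genes were taken without the gene itself, and their median log2 fold change is termed the neighbour median. Hk1 (chr10:62268855-62379908, mm10, minus strand) and P4ha1 (chr10:59323296-59373304, plus strand) had neighbour medians of 0.50 and 0.52. Hif1a (chr12:73901375-73947530, plus strand) and Egln3 (chr12:54178981-54203860, minus strand) had medians of -0.47 and -0.49. With the neighbour median taken as an offset 13 members were called, 10 higher and 3 lower, against 31.5% of all genes. Of the 19 original calls 11 remained in the same direction. Those lost were Hk1 (0.20), P4ha1 (0.21), Gpi1 (-0.16), Pfkfb3 (0.17), Pdk1 (0.0633), Pdk3 (0.11), Hif1a (-0.14) and Egln3, which was then at 0.0459. Pfkp (0.25, adjusted p = 0.0493) and Bnip3l (0.43, adjusted p = 0.00371) were called instead. Vegfa (1.37), Aldoc (1.40), Hk2 (0.83), Pfkfb4 (0.79), Slc2a1 (0.52), Pfkm (0.48), Ndrg1 (0.48), Ankrd37 (0.87), Ldhb (-2.98), Higd1a (-0.37) and P4ha2 (-0.35) were called with their direction kept. For Ankrd37 and Ldhb the filter had fixed the direction in advance, so that keeping it says nothing of stability. What moved the regions was not tested.

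HIF binds DNA at a short core, written ACGTG or GCGTG, which was searched on both strands of RefSeq promoters (build GRCm38.p6, 250 bases before to 50 bases after each start). The E-box CACGTG holds ACGTG on both strands and so counts as 2 matches. Promoters were matched for 37 of the 40 members, 52 in all, leaving out Slc2a3, Bnip3l and Ndrg1. A core was present in 80.8% of them, in 63.1% of promoters of tested genes and in 43.8% of all 32851 promoters. ACGTG alone was in 55.8%, 25.7% and 19.6%. Median GC content was 62.2%, 61% and 52.7% in the same order. By gene a core was common whatever the call. It was in a promoter of 12 of 12 members that were higher, 5 of 6 that were lower (not in Gpi1), 13 of 15 that were not called (not in Tpi1 or Eno2) and 4 of 4 that were not tested, beside 69.2% of all tested genes. A gene counted if any of its promoters held a core. Another promoter held none for Vegfa, Hk1, Pfkm and Pdk1, which were higher, and for Aldoa and Pkm, which were not called. With so many promoters holding a core, these counts cannot show whether it goes with a direction. A match is a string of letters and no record of binding.

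Promoters are shown here with each core in capitals (its reverse complement where it lies on the other strand, and overlapping cores run together). They are those of the prolyl hydroxylase pair called in opposite directions, and of Hk2 and Ankrd37, which were higher. Higd1a, which was lower, and Ldha, which holds the most cores and was not called, are shown too. P4ha1 is chr10:59323046-59323345, plus strand, and P4ha2 is chr11:54100674-54100973, plus strand. Hk2 is chr6:82774405-82774704 and Ankrd37 is chr8:45999801-46000100, both minus strand. Higd1a is chr9:121857747-121858046, minus strand, and Ldha is chr7:46845554-46845853, plus strand.
P4ha1: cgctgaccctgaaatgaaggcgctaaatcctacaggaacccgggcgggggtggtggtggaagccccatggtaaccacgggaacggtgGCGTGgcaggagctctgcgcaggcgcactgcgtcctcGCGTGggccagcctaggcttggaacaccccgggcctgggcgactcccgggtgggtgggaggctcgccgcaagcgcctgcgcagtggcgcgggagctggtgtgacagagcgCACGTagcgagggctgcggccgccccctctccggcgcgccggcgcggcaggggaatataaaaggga
P4ha2: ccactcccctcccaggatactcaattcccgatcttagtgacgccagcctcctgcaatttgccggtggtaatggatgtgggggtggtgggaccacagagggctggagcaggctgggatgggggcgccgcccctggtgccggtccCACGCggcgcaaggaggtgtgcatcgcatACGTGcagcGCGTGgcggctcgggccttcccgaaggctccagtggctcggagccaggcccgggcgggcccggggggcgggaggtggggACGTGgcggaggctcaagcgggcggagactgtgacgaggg
Hk2: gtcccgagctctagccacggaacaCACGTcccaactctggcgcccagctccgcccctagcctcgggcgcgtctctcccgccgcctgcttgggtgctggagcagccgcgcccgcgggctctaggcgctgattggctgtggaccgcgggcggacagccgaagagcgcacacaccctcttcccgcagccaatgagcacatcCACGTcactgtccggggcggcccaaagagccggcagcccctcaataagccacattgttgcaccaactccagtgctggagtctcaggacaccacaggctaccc
Ankrd37: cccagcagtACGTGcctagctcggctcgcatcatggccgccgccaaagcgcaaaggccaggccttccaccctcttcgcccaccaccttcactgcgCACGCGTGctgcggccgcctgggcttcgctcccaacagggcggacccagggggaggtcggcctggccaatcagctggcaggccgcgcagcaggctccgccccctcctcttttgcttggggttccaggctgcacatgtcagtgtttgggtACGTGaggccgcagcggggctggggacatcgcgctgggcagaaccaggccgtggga
Higd1a: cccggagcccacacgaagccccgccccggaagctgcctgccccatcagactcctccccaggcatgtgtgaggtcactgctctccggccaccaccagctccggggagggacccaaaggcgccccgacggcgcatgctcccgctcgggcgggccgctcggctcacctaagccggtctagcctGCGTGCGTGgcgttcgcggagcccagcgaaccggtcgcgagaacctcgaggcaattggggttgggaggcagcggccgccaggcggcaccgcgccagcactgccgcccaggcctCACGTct
Ldha: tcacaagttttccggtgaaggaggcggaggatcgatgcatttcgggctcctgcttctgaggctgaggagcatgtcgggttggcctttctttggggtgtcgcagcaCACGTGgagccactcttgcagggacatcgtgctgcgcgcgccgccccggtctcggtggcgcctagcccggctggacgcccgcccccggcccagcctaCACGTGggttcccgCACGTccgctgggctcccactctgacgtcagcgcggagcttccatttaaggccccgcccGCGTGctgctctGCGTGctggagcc
The promoter of P4ha1 holds 1 ACGTG and 2 GCGTG, that of P4ha2 holds 2 of each, and that of Ldha holds 5 ACGTG, of which 4 come from 2 E-boxes, and 2 GCGTG.

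The genes around the chain were read from 6 lists holding 97 genes, of which 76 were tested and 36 were called (21 higher, 15 lower), a share of 47.4% beside the 42.1% of all genes (21.1% higher, 21% lower). None of the counts by list is a result about its list. Other HIF targets had 9 of 22 called, 7 higher and 2 lower, which is 40.9% beside 42.1% of all genes. Ddit4, an inhibitor of mTORC1, rose from 8.97, 7.72 and 8.29 cpm to 36.8, 54.1 and 47.1 cpm (2.48, SE 0.139), with a neighbour median of 0.50, and stood at 1.97 with the neighbour offset. The circadian repressor Bhlhe40 (0.92, SE 0.0636), heme oxygenase Hmox1 (0.76, SE 0.13) and the collagen lysyl hydroxylase Plod1 (0.50, SE 0.0893) were also higher. Of 9 HIF pathway regulators 2 were higher and 3 lower (55.6% called). Cited2, which competes with HIF for its coactivator, fell (-0.72, SE 0.0891, neighbour median -0.40), as did the asparaginyl hydroxylase Hif1an (-0.26, SE 0.0774) and the prolyl hydroxylase Egln2 (-0.31, SE 0.101), while the coactivator Ep300 rose (0.27, SE 0.0748). With the neighbour offset 1 of these 9 regulators was called, Cited2 (-0.32).

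Among regulators of glycolysis 5 of 11 were higher and 1 lower, a share called of 54.5% beside 42.1% of all genes. Txnip, which restrains glucose uptake and is itself induced by glucose, stood at 83.5, 93.5 and 88.9 cpm in METTL7A1 and 36.1, 39.7 and 37.3 cpm in mock (1.23, SE 0.0734), and its relative Arrdc4 rose alongside (1.40, SE 0.15). The deacetylase Sirt6, a repressor of glycolytic genes (0.77, SE 0.113), and the kinase Stk11 (0.43, SE 0.0735) were higher, with neighbour medians of 0.32 and 0.31. With the neighbour offset Sirt6 was at 0.45 and still called, and Stk11 was at 0.11 and no longer called (adjusted p = 0.272). So transcripts on both sides of glucose uptake, Slc2a1 and Txnip, were above mock in the same libraries.

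Of 10 other glycolytic isozymes, 40% of them called, 2 were higher, the transporters Slc2a4 (1.30, SE 0.283) and Slc2a8 (0.80, SE 0.188), and 2 lower, the ADP-dependent glucokinase Adpgk (-0.42, SE 0.0759) and the fructose bisphosphatase Tigar (-0.55, SE 0.133). Slc2a4 did not exceed 1.05 cpm in any library and entered the test through the METTL7A1 libraries alone, so that its call had to be on the higher side. In the pentose phosphate pathway 2 of 10 were higher and 4 lower, a share called of 60% beside 42.1% of all genes. The transketolase Tkt went from 354, 368 and 289 cpm to 192, 215 and 221 cpm (-0.69, SE 0.1), the transaldolase Taldo1 (-0.47, SE 0.103) and Prps2 (-0.37, SE 0.0921) were also lower, and the ribose phosphate isomerase Rpia was higher (0.54, SE 0.0804). Of 14 genes of pyruvate entry to mitochondria 3 were higher and 3 lower, which is 42.9% beside 42.1%. Ldhd, a mitochondrial D-lactate dehydrogenase, had 7.11, 7.38 and 7.02 cpm in METTL7A1 against 0.875, 0.825 and 1.01 cpm (2.98, SE 0.178). It reached 1 cpm in 1 mock library, so it too passed the filter through METTL7A1, where it is high. The malic enzyme Me1 (0.61, SE 0.116) was higher, and the dihydrolipoamide dehydrogenase Dld (-0.51, SE 0.0864, neighbour median -0.52) and Pdpr (-0.26, SE 0.0803) were lower. With the neighbour offset both calls ended, with Dld at 0.013 (adjusted p = 0.928) and Pdpr at -0.10 (adjusted p = 0.382).

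Some members share sequence with other genes, which limits how well their reads could be placed. Of all 50-base stretches of the transcripts of Pgk1, 53.9% also occur in transcripts of other genes, and the share was 36.2% for Pgam1, 26% for Eno1, 25.8% for Pkm, 24.7% for Gapdh, 21% for Ldhb, 20.8% for Bnip3l and 16.5% for Bnip3. Eno1b, which holds most of the copies of Eno1, had up to 2689 counts. Exons of Pfkm, Pfkp and Ankrd37 overlap those of Senp1, Pitrm1 and Ufsp2 on the opposite strand over 18, 372 and 57 bases. Senp1, Pitrm1 and Ufsp2 had up to 1936, 3326 and 733 counts, each more than the member it overlaps. How strand was handled in counting is not given in the sources used here.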

How the data were processed

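The authors trimmed paired reads with BBDuk, aligned them with STAR 2.5.3a to mm10 and counted them per gene with featureCounts. They deposited raw counts without normalization, and per the file headers exon coordinates and exon length. Settings for strand and reads with several placements are not given in the sources used here. The table uses some older symbols (Tceb1, Tceb2 and Ero1l), which were matched through RefSeq synonyms.

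Groups and replicate numbers came from the sample titles. Counts were scaled with TMM factors and tested in R 4.3.3 with edgeR 4.0.16 (glmQLFit and glmQLFTest, no covariate, all 6 libraries), after a filter of at least 1 cpm in at least 3 libraries. P-values were adjusted over all 13166 genes, and each adjusted p is from this test unless an alternative is named. SE is the log2 fold change divided by the square root of F, and intervals are at 95%. Neighbours were the 40 nearest tested genes with average log2 cpm over 2. Depth was 18386780 to 28459338 counts, where 3 counts correspond to 0.102 to 0.164 cpm. The code was tested on simulated data. Members, lists and tests were chosen with earlier results of these data known. All members are named, those called with values in every library, and of each list at most the 4 called genes with smallest adjusted p. Alternatives were RLE and upper quartile scaling, no filter, at least 10 counts in every library, DESeq2 1.42.0, voom of limma 3.58.1, a replicate block, each library left out in turn and the neighbour offset, and for shares no division by exon length.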

Additional observations from a re-analysis of the deposited data

How the results depend on the processing

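The number of members called was 13 to 20 over all alternatives, against 19. The number lower was 3 with the neighbour offset and 2 to 7 when 1 library was left out (3 without METTL7A1 replicate 2, 3 without mock replicate 1, 2 without mock replicate 2). Members past the study thresholds numbered 0 with at least 10 counts in every library and 0 to 1 with 1 library left out. The median log2 fold change was 0.106 without a filter, 0.112 with the offset and -0.0438 to 0.126 with 1 library left out, so its sign is not settled. Egln3 reversed to 0.0459 with the offset. Slc2a1, Hk2, Pfkm, Aldoc, Pfkfb4, Vegfa, Ndrg1 and Higd1a kept call and direction in every alternative. Ldhb without any one mock library and Ankrd37 without any one METTL7A1 library fell under the filter. Their calls in the other fits with that filter therefore say nothing of stability. Without a filter, where the direction was not fixed, Ldhb was at -3 (adjusted p = 4.51e-14). Ankrd37 was called in each of the 11 alternatives that held it, the fits without that filter among them. Causes of the other changes were not tested.

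Between libraries of the same replicate number the correlations of deviations were -0.159, 0.23 and -0.391. These few values of mixed sign cannot show whether the numbers pair the libraries. With the replicate block 18 members were called, Gpi1 being lost (-0.30, adjusted p = 0.0502), and 30 of the listed pathway genes.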
